A study of Mus musculus with 5 samples.

Results

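This report describes 9 genes of the activin and transforming growth factor beta (TGF-beta) pathway in macrophages recovered from tumour cell plugs in mice. The genes are Inhba, Fst, Tgfb1, Tgfb2, Tgfb3, Tgfbr1, Tgfbr2, Tgfbi and Smad7. Members were all probe sets, that is, groups of oligonucleotide probes for 1 transcript, whose annotated symbol was one of these names. This gave 23 of the 45037 probe sets that remained after removal of controls, and none of the 23 carried several symbols. All mice were adult Balb/c SCID animals, 7 to 12 weeks old, which make hardly any T or B lymphocytes of their own. They carried a transgenic T-cell receptor against the idiotype of the mouse myeloma MOPC315. In both groups myeloma cells were injected under the skin in Matrigel and CD11b+ cells were sorted from the plugs on day 8. The tumoricidal group (3 biological replicates) came from plugs with MOPC315, and the control group (2 biological replicates, called non-tumoricidal in the labels) from plugs with antigen-loss MOPC315. Whether 1 array stands for 1 mouse or for a pool is not given in the sources used here.

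TGF-beta and activin are secreted dimers of one protein family. Each binds a type II receptor, which activates a type I receptor, and both then act through the transcription regulators Smad2 and Smad3. Inhba encodes the chain that pairs with itself to form activin A. Follistatin (Fst) binds activin and keeps it from its receptors, and Smad7 is an inhibitor that the pathway induces against itself. Macrophages both make and sense these factors, and Tgfbi, a matrix protein named for its induction by TGF-beta, is abundant in many macrophages.

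Signals are linear intensities scaled so that all arrays share 1 median, and values at or below 4.79, the 25th percentile of all scaled signals, were set to that floor before log2 was taken. Differences are tumoricidal minus control on the log2 scale, with p-values from limma over all 41053 probe sets that exceeded the floor on at least 1 array. Of the 23 members 21 did so. The exceptions were Inhba 1458291_at, with scaled signals from 1.06 to 3.40, and Tgfb2 1438303_at, from 0.407 to 1.54. Spike-in BioC probe sets, which report on the hybridisation and not on the sample, gave a mean log2 signal of 9.25 to 9.42 on 3 arrays, called batch A here (tumoricidal replicates 1 and 2 with control replicate 1), and of 7.38 and 7.45 on the other 2, called batch B (tumoricidal replicate 3 and control replicate 2). The labels name no batch. No 2 arrays were duplicates: across probe sets, which are not independent replicates, Pearson's r was 0.941 to 0.965. Macrophage markers were present throughout: none of 10 was at the floor on all arrays of either group, and their summed signal was 26718 to 40893 in tumoricidal and 24182 to 33090 in control arrays. The sort also held RNA of other cells, as the marker sums below show, and in a bulk sample fewer cells of a type and less RNA per cell cannot be told apart.

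Inhba is the member with the largest positive difference, and the bases before its start are shown here because that difference leads the results. The sequence of Tgfb1, a ligand whose level hardly differed between the groups, is set beside it. RefSeq promoter sequences of build GRCm38.p6 matched 6 of the 9 members. Both stretches are the 250 bases before the listed start, on the plus strand. The Inhba stretch is chr13:16011601-16011850, inside the annotated gene interval chr13:16004256-16031609, so the listed start is not the outermost one. The Tgfb1 stretch is chr7:25686752-25687001, just before the gene at chr7:25687002-25705077. Capitals mark TATAAA.
Inhba: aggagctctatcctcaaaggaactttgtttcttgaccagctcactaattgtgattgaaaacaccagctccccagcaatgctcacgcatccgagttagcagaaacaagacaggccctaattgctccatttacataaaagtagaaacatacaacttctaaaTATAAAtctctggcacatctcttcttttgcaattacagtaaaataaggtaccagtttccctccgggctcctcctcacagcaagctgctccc
Tgfb1: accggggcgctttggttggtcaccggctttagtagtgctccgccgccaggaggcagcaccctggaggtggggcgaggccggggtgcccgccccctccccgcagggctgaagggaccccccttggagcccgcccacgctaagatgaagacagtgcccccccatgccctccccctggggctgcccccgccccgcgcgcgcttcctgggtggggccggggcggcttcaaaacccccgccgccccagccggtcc

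The pair differ in base composition. The Inhba stretch was 43.2% G and C and the Tgfb1 stretch 75.2%, against a median of 52.4% over 32851 promoters of the same length. TATAAA, the core of the TATA box, begins 91 bases before the Inhba start and is held on either strand by 12.4% of those promoters. The Inhba stretch held neither TTCNNNGAA, the form of a STAT site, which 7.02% of promoters hold, nor TGANTCA, the AP-1 site (6.75%), nor GAAANNGAA, a core of the interferon-stimulated response element (7.13%), nor CAGAC, the short Smad box (42.2%). Each was searched on both strands, and a missing match says only that these letters are not in this window. The Tgfb1 stretch held none of these 5 motifs, and the cyclic AMP response element TGACGTCA (1.55%) and the full Smad box GTCTAGAC (0.167%) were in no member window. Among the other matched members GAAANNGAA was found once before Tgfbi, 194 bases from the start, and CAGAC was found in the windows of Tgfb2, Tgfbr2, Tgfbi and the second listed start of Tgfbr1. Tgfb2 also held TATAAA, 31 bases before its start. No match overlapped another.

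Activin chain Inhba was the member with the clearest separation upward. Its scaled signal on 1422053_at in the 3 tumoricidal replicates was 228, 222 and 1058, in that order, against 51.3 and 60.3 in the control replicates. All 3 tumoricidal arrays lay above both control arrays, and tumoricidal replicate 3 stood far above the other 2. The mean was 503 ± 481 (SD, n = 3) against 55.8 ± 6.37 (SD, n = 2). The log2 difference was 2.76 (SE 0.73, 95% interval 0.94 to 4.58), a fold of 6.78, with an unadjusted limma p of 0.0103 and an adjusted p of 0.402, so Inhba did not pass the threshold of 0.05 over all probe sets. In batch A alone the difference was 2.13, and in batch B alone, with 1 array per group, it was 4.13. Blocking on the batch gave 2.99 (SE 0.52, limma adjusted p = 0.282; 0.128 to 0.908 over the alternatives). Whether the batches differ in this value cannot be read from 5 arrays: a fit with a group-by-batch term, added after the data were seen, leaves 1 residual degree of freedom and gave that term a limma adjusted p of 0.585. Without tumoricidal replicate 3 the group difference was 2.02, and the lowest and highest values with any 1 array left out were 2.02 and 3.14.

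**Figure D1:**
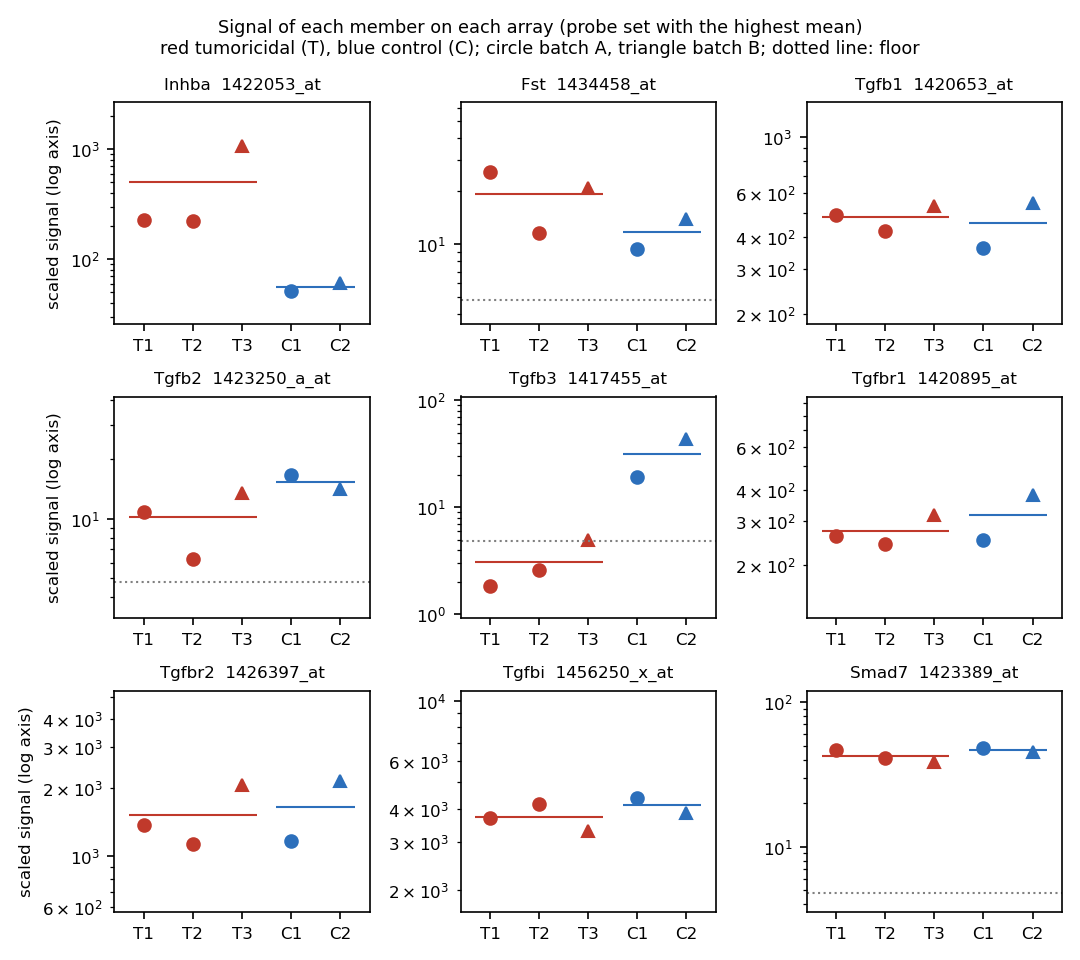
Scaled signal (log axis) of each of the 9 genes on each array, for the probe set with the highest mean log2; T1 to T3 are tumoricidal and C1 and C2 control replicates, circles are batch A, triangles batch B, lines are group means and the dotted line is the floor where it is in range. Inhba is higher on all 3 tumoricidal arrays (222 to 1058 against 51.3 and 60.3), Tgfb3 is lower on all 3, and Tgfbr2 is higher on the triangles of both groups.

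Among 18192 other named genes compared, each by its probe set with the highest mean, the 5 whose log2 profile over the 5 arrays lay closest to that of Inhba were C1s1, Dcstamp, Il12a, Cd274 and Tyro3. Closeness was the root mean square difference of profiles centred on their means. C1s1, a protease of the complement pathway, was the closest at 0.27, with signals of 173, 133 and 495 in tumoricidal and 40.0 and 42.1 in control replicates; its probe set is of a type that can match several related transcripts. Dcstamp, which macrophages need to fuse into giant cells, followed at 0.35, with 68.6, 55.3 and 203 against 20.5 and 18.5. Likeness to Inhba chose these genes, so the order of their arrays is not a result. The interleukin subunit Il12a was at 0.41, the checkpoint ligand Cd274 at 0.47 and the receptor kinase Tyro3 at 0.50.

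Follistatin, the antagonist of activin, was weakly expressed on both of its probe sets. On 1434458_at the scaled signals were 25.6, 11.6 and 21.0 in tumoricidal and 9.40 and 14.0 in control replicates, and the groups overlapped. On 1421365_at they were 11.8, 16.2 and 12.9 against 11.2 and 7.80, and the groups did not overlap. In the deposited values, at 11.6, 16.8 and 11.0 against 14.1 and 7.80, they did. The log2 differences were 0.69 (SE 0.42, 95% interval -0.35 to 1.72, limma adjusted p = 0.789) and 0.53 (SE 0.29, -0.19 to 1.25, adjusted p = 0.770). Both values were positive in each batch alone, and neither passed the threshold.

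Tgfb3 was the member with the clearest separation downward. Its only probe set, 1417455_at, had scaled signals of 1.83, 2.60 and 4.91 in tumoricidal and 19.0 and 43.4 in control replicates. Tumoricidal replicates 1 and 2 lay below the floor and replicate 3 just above it, while both control arrays were well above. The log2 difference was -2.57 (SE 0.39, 95% interval -3.54 to -1.61, limma unadjusted p = 0.000713, adjusted p = 0.160). It was computed with tumoricidal replicates 1 and 2 set to the floor, so its size and SE move with the floor. It did not pass over all probe sets. The value was -1.99 in batch A alone, -3.14 in batch B alone and -2.48 when the batch was blocked on (limma adjusted p = 0.237; 0.0213 to 0.908 over the alternatives). Where only probe sets with a group mean above the median signal were tested, the value stayed at -2.57 and limma's adjusted p was 0.0213, though Tgfb3 entered that set through its control arrays alone. With the floor raised to the 50th percentile the difference was -0.68 (adjusted p = 0.621), and with the floor at the 10th percentile it was -3.33 (adjusted p = 0.260). The summed signal of 7 plasma cell or myeloma markers was lower in the same arrays, at 3507 to 4539 in tumoricidal and 5071 to 5768 in control arrays. Of the 7, 4 were lower on every tumoricidal array and 2 were higher. Over all tested probe sets 7.60% had the groups apart downward and 13.3% upward. Xbp1, the largest part of the sum on each array, was among those higher, with 3132, 3098 and 3297 against 2456 and 2721. Jchain had 387, 78.7 and 561 against 1623 and 1985. Tnfrsf17 was at the floor on all 3 tumoricidal arrays and on no control array. Platelet markers summed to 2633 to 4306 and 4252 to 5992 over 5 genes, with none at the floor throughout a group. Most of that sum was Pf4, whose groups overlapped. Of the 5 only Ppbp was lower on every tumoricidal array, and Gp9 and Gp1bb had positive log2 differences of 0.78 and 0.15. Fibroblast marker sums, over 8 genes with none at the floor throughout, overlapped between the groups, at 1382 to 4406 and 1998 to 3375. Of the 8 only Thy1 had the groups apart, higher on every tumoricidal array. The part of these cells in the Tgfb3 result was not tested.

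**Figure D2:**
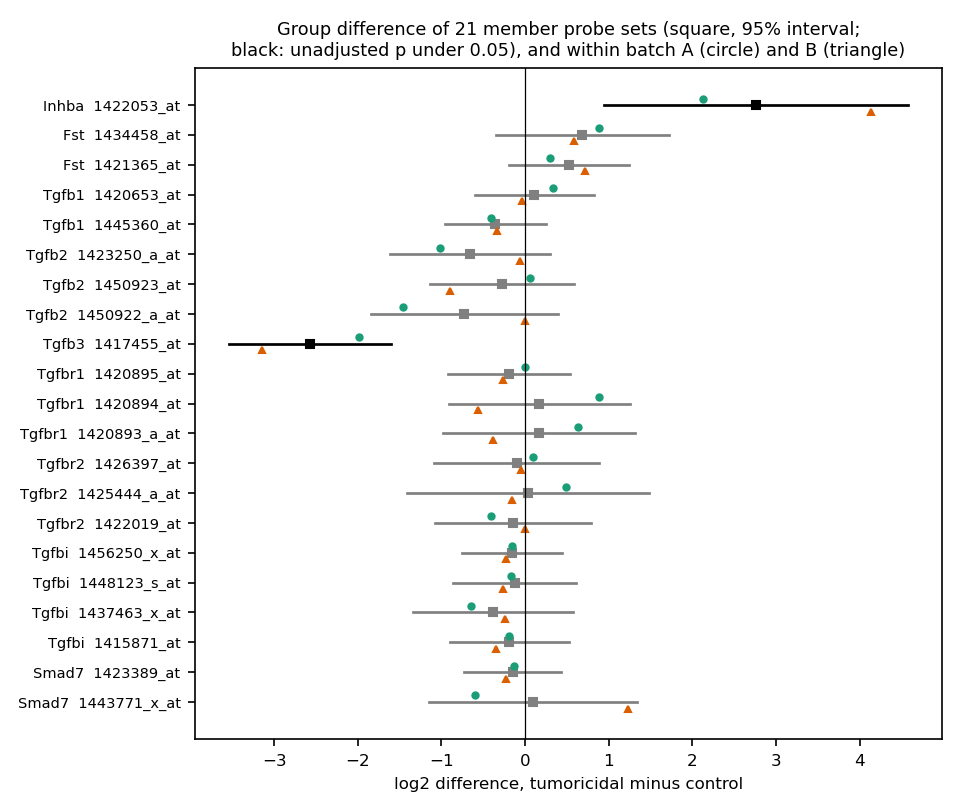
Log2 difference, tumoricidal minus control, of the 21 member probe sets tested, as squares with 95% limma intervals (black where the unadjusted p is under 0.05), with the differences in batch A alone (circles) and in batch B alone (triangles). Only the intervals of Inhba (0.94 to 4.58) and Tgfb3 (-3.54 to -1.61) lie apart from 0.

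The other ligands had smaller differences than Inhba and Tgfb3, and none passed the threshold. Tgfb1, the main TGF-beta of blood and immune cells, had scaled signals of 491, 426 and 532 in tumoricidal and 363 and 546 in control replicates on 1420653_at. The control arrays enclosed all 3 tumoricidal ones. The log2 difference was 0.11 (SE 0.29, 95% interval -0.59 to 0.82, limma adjusted p = 0.928), and its sign turned to -0.12 with the deposited scaling and -0.14 with quantile normalization. The second Tgfb1 probe set, 1445360_at, had 28.4, 36.2 and 30.3 against 42.5 and 38.2, with the groups apart in the other direction and a difference of -0.36 (SE 0.24, adjusted p = 0.803). The probe sets of Tgfb1 thus disagreed in sign with the scaling used here. With the deposited scaling and with quantile normalization both were negative, 1445360_at at -0.59 and -0.40. Tgfb2 was near the floor. Its probe set with the highest mean, 1423250_a_at, had 10.8, 6.26 and 13.6 against 16.6 and 14.1. All 3 tumoricidal arrays lay below both control arrays, with the deposited scaling and with quantile normalization too. The difference was -0.66 (SE 0.39, 95% interval -1.61 to 0.30, adjusted p = 0.786), with -1.02 in batch A alone and -0.06 in batch B alone. The remaining 2 tested Tgfb2 probe sets had -0.28 and -0.73, each with at least 1 tumoricidal array at the floor.

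On 3 of the 6 receptor probe sets, 2 of Tgfbr2 and 1 of Tgfbr1, the batches lay apart while the groups overlapped. Tgfbr2, the type II receptor that binds TGF-beta first, had scaled signals on 1426397_at of 1372, 1137 and 2060 in tumoricidal and 1173 and 2129 in control replicates. The 2 arrays of batch B, 1 from each group, were above all 3 arrays of batch A, with means of 2094 and 1227. The group difference was -0.10 (SE 0.40, 95% interval -1.09 to 0.89, limma adjusted p = 0.955), and 0.03 (SE 0.22) when the batch was blocked on, where batch B exceeded batch A by 0.78 (SE 0.22), or 1.72-fold. On 1425444_a_at the signals were 138, 68.1 and 169 against 69.0 and 189, again with both arrays of batch B on top, and the group difference was 0.03 (SE 0.59). Its remaining probe set, 1422019_at, was at the floor on 2 tumoricidal arrays and 1 control array. Tgfbr1, the type I receptor that carries the signal into the cell, showed the same order on 1420895_at, with 262, 243 and 318 in tumoricidal and 253 and 383 in control replicates. Its group difference was -0.19 (SE 0.29, 95% interval -0.92 to 0.54, adjusted p = 0.880). This order depended on the scaling: in the deposited values 1420895_at had 258, 252 and 272 against 317 and 383, so that the groups lay apart and the batches did not, and the same held with quantile normalization. The other 2 Tgfbr1 probe sets, 1420894_at and 1420893_a_at, had 0.17 each, positive in batch A alone (0.89 and 0.64) and negative in batch B alone (-0.56 and -0.39).

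The order by batch was compared with that of all probe sets. Over all tested probe sets 24.8% had batches that did not overlap, and 6 of the 21 members did, so the share among members was near the background. Besides the 3 receptor probe sets these were Tgfb1 1420653_at, higher in batch B, and 2 of Tgfbi, lower in batch B. The separation of both Tgfbr2 and both Tgfbi probe sets was present with the deposited scaling and with quantile normalization too, while that of Tgfbr1 1420895_at and Tgfb1 1420653_at was present under neither.

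Tgfbi, the matrix protein induced by TGF-beta, gave high signals in both groups on all 4 of its probe sets. On 1456250_x_at the scaled signals were 3684, 4150 and 3307 in tumoricidal and 4374 and 3863 in control replicates, and the groups overlapped. The mean was 3714 ± 423 (SD, n = 3) against 4118 ± 361 (SD, n = 2). The log2 difference was -0.15 (SE 0.24, 95% interval -0.75 to 0.45, limma adjusted p = 0.883). The other probe sets had -0.13, -0.38 and -0.19, each with an interval that includes 0 and overlapping groups. All 4 values were negative in each batch alone as well. On 1448123_s_at and 1437463_x_at they turned positive, to at most 0.08, with a single array left out.

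Smad7, the inhibitor that feeds back on the pathway, was close to level. On 1423389_at its scaled signals were 46.8, 41.3 and 38.7 in tumoricidal and 48.1 and 45.3 in control replicates. The groups overlapped, and the log2 difference was -0.15 (SE 0.23, 95% interval -0.73 to 0.43, limma adjusted p = 0.882). On 1443771_x_at the signals were 17.1, 22.7 and 49.6 against 29.8 and 21.2, with tumoricidal replicate 3 the highest, and the difference of 0.09 (SE 0.50) was -0.60 in batch A alone and 1.23 in batch B alone.

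Over the 21 tested members none passed limma's adjusted p of 0.05, where 0.0512% of all probe sets did. Inhba (higher) and Tgfb3 (lower) were the 2 members with an unadjusted p under 0.05, where 7.99% of all probe sets passed, 4.92% higher and 3.07% lower. The balance over all probe sets depends on the scaling: 2021 higher and 1259 lower here, 1172 and 2500 with the deposited scaling, and 1723 and 1691 with quantile normalization. The groups did not overlap for 5 members, 2 higher and 3 lower, or 23.8%, against 20.9% of all probe sets (13.3% higher and 7.60% lower). The count was also 5 with the deposited scaling (1 higher, 4 lower; 22.8% of all probe sets) and with quantile normalization (2 higher, 3 lower; 21.5%), but not of the same probe sets: Fst 1421365_at was apart except with the deposited scaling, Tgfb1 1445360_at except with quantile normalization, and Tgfbr1 1420895_at only with those other scalings. These shares were near those of all probe sets. The median log2 difference was -0.14 over the tested members and 0.09 over all tested probe sets.

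**Figure D3:**
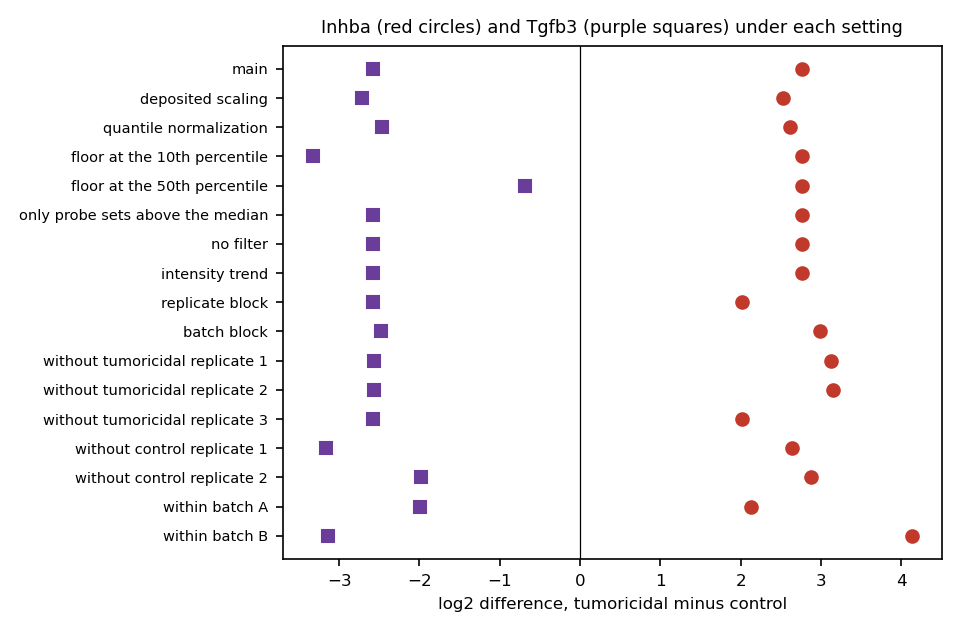
Log2 difference, tumoricidal minus control, of Inhba 1422053_at (red circles) and Tgfb3 1417455_at (purple squares) under the reported setting and each alternative. Inhba stays between 2.02 and 4.13 and Tgfb3 between -3.33 and -0.68, the latter with the floor at the 50th percentile.

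The other genes of the pathway were taken from a list of 86 names by role, 76 of which had probe sets on the array. Of their 147 probe sets 134 were tested and none passed limma's adjusted p of 0.05. At an unadjusted p under 0.05, 3 were higher and 12 lower, from 3 and 10 genes; for comparison, 4.92% and 3.07% of all probe sets were. The groups did not overlap for 13 higher and 16 lower, 21.6% of the 134, near the 20.9% over all probe sets. The median log2 difference was 0.04.

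Of the other ligands 21 probe sets were tested, with 1 higher and 4 lower at an unadjusted p under 0.05. Over all probe sets 4.92% were higher and 3.07% lower, the shares to set beside the counts by role here and below. Bmp10 1421763_at, named after its value was seen, had -1.28 (SE 0.38, limma adjusted p = 0.477) with 2 tumoricidal arrays at the floor. Gdf3, a family member known from early embryos and from fat tissue macrophages, had 26.5, 28.8 and 40.6 in tumoricidal and 64.4 and 111 in control replicates, a difference of -1.43 (SE 0.35, limma adjusted p = 0.365), and its dimmer probe set, 1460057_at, had -2.29 (SE 0.64, adjusted p = 0.428) with 2 tumoricidal arrays at the floor. Bmp2, a bone morphogenetic protein, had -0.97 (SE 0.64, adjusted p = 0.798), with its highest signals in batch B of each group: 143, 154 and 515 against 329 and 592. The other inhibin chains, singled out after their values were seen, were faint. Inha, the alpha chain that turns an activin chain into an inhibin, had 17.4, 15.8 and 16.0 against 9.16 and 9.0, a difference of 0.85 (SE 0.22, adjusted p = 0.399). Inhbb, the chain of activin B, had 6.20, 3.27 and 6.55 against 14.8 and 19.4 on 1426859_at, a difference of -1.55 (SE 0.28, adjusted p = 0.217) with 1 tumoricidal array at the floor, and -0.53 on 1426858_at. Inhbc and Inhbe, chains best known from liver, had -0.43 (SE 0.47) and -0.42 (SE 0.49), with overlapping groups and 2 tumoricidal arrays of each at the floor. The beta chains Inhba and Inhbb thus had differences of opposite sign, and neither passed the threshold.

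Of the other receptors 28 probe sets were tested, with 1 higher and 2 lower at an unadjusted p under 0.05. Acvr1, a type I receptor for activins and bone morphogenetic proteins, had 46.3, 41.5 and 42.0 against 14.1 and 30.1 on 1416786_at, a difference of 1.07 (SE 0.37, limma adjusted p = 0.558), while its other 2 probe sets had 0.03 and 0.38. Bmpr1a, a receptor for bone morphogenetic proteins, had -1.41 (SE 0.49, adjusted p = 0.553) on 1 of 5 tested probe sets, which between them ran from -1.41 to 0.14. The signals behind the -1.41, on 1425491_at, were 7.22, 14.3 and 4.21 against 19.7 and 22.5, with 1 tumoricidal array at the floor. Acvr1b, a type I activin receptor, had 249, 232 and 271 against 202 and 210 on its brighter probe set, 1433725_at, a difference of 0.28 (SE 0.23, adjusted p = 0.823). Acvr2a, a type II activin receptor, had 97.4, 76.9 and 94.8 against 67.9 and 75.4 on 1437382_at, a difference of 0.32 (SE 0.25, adjusted p = 0.816). The groups lay apart on both, but overlapped in the deposited values, where control replicate 1 had 254.0 for Acvr1b and 85.2 for Acvr2a. Acvr2b, the other type II receptor, had 6.30, 0.770 and 3.16 against 9.88 and 10.3 on 1419140_at, a difference of -0.94 (SE 0.25, adjusted p = 0.406) with 2 tumoricidal arrays at the floor, and 0.39 (SE 0.53) on 1439856_at. Among the Smads that carry the signal 15 probe sets were tested and 1 was lower at an unadjusted p under 0.05. This was Smad3 1450471_at, with -1.38 (SE 0.24, limma adjusted p = 0.207) and all 3 tumoricidal arrays at the floor. Values set to the floor are equal, so this SE and p do not measure the spread of the tumoricidal replicates. The brighter Smad3 probe sets had 0.10 and 0.02. Smad1 and Smad5, which act for bone morphogenetic proteins, had 0.34 (SE 0.26, adjusted p = 0.813) and 0.32 (SE 0.27, adjusted p = 0.830).

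Of 35 tested probe sets of inhibitors 1 was lower at an unadjusted p under 0.05 and none was higher. Smad6, the inhibitor paired with bone morphogenetic protein signals as Smad7 is with TGF-beta, had 31.7, 8.76 and 25.6 in tumoricidal and 91.1 and 85.1 in control replicates. All 3 tumoricidal arrays lay below both control arrays, with a difference of -2.19 (SE 0.58, limma adjusted p = 0.399) that was -2.45 in batch A alone and -1.73 in batch B alone. Smurf1, a ubiquitin ligase that marks Smads for breakdown, had 0.87 (SE 0.36, adjusted p = 0.649). Of 15 probe sets for release of latent TGF-beta, 1 was higher and 2 lower at an unadjusted p under 0.05. Thbs1, thrombospondin, which can free TGF-beta from its latent form, had 104, 41.3 and 109 against 232 and 391 on 1460302_at, a difference of -1.96 (SE 0.52, adjusted p = 0.402), and -1.38 on its other probe set. Platelets also carry thrombospondin; their marker sums are given above with Tgfb3, and their part in this value was not tested. Mmp14, a membrane-bound matrix protease, had 1.23 (SE 0.44, adjusted p = 0.571), and all 3 of its probe sets were positive.

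Of 20 probe sets of target genes, 2 were lower at an unadjusted p under 0.05 and none was higher. Ccn2, connective tissue growth factor, had 9.86, 13.1 and 13.0 in tumoricidal and 41.5 and 23.1 in control replicates, a difference of -1.38 (SE 0.34, limma adjusted p = 0.365). Fn1, fibronectin, had 222, 248 and 498 against 952 and 832 on 1437218_at, a difference of -1.56 (SE 0.41, adjusted p = 0.398). On its brighter probe set, 1426642_at, the Fn1 signals were 3072, 2914 and 3290 against 4097 and 3842, and the difference was -0.36 (SE 0.23, adjusted p = 0.794). Both of these targets had every tumoricidal array below every control array. Of the 20 probe sets 3 had the groups apart downward and none upward, where 7.60% and 13.3% of all probe sets did. The median log2 difference of the 20 was 0.02.

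**Figure D4:**
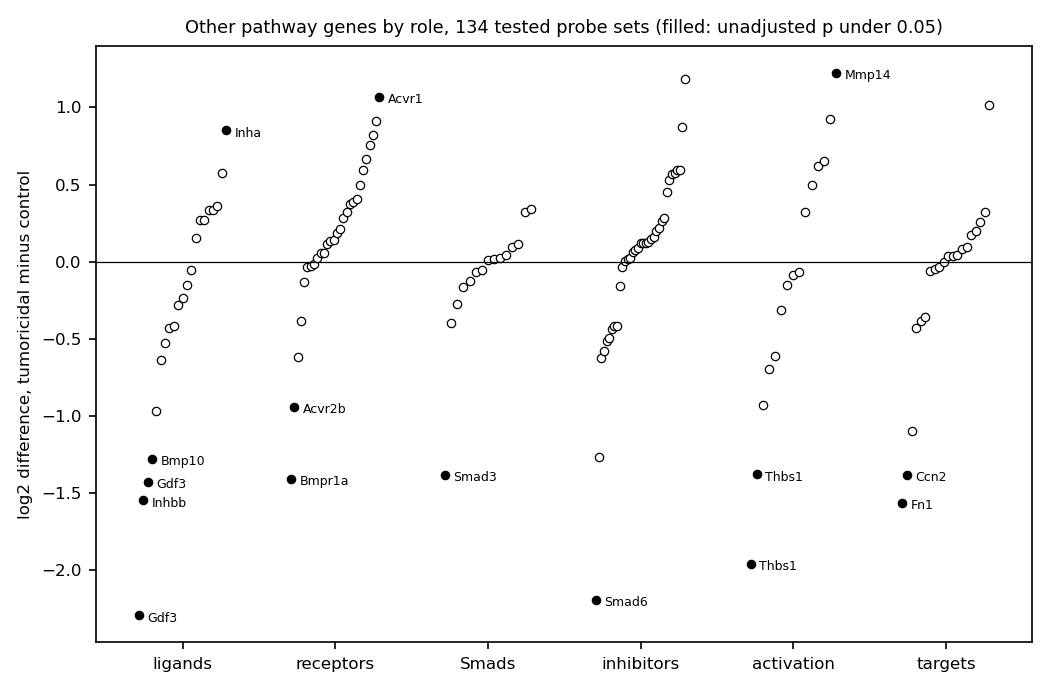
Log2 difference, tumoricidal minus control, of the 134 tested probe sets of the other pathway genes, by role; filled points with names have an unadjusted limma p under 0.05. Of the named points 3 are above 0 (Inha, Acvr1, Mmp14) and 12 below, down to -2.29 for Gdf3 1460057_at, which has 2 tumoricidal arrays at the floor.

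The summed markers of natural killer cells, neutrophils, dendritic cells, and eosinophils, mast cells and basophils were higher on each tumoricidal array than on either control array, as Inhba was. Natural killer cell markers summed to 1133 to 3133 in tumoricidal and 229.5 to 555 in control arrays over 6 genes, all 6 with the groups apart. Neutrophil markers summed to 9020.1 to 10099 and 3860 to 6450 over 7 genes, 4 of them with the groups apart. Most of the sum came from S100a8 and S100a9, with 4788 and 4967 in tumoricidal replicate 1. Camp, Mpo and Elane had overlapping groups, with log2 differences of 0.98, -0.29 and -0.35. Over all tested probe sets 13.3% had the groups apart upward. Dendritic cell markers summed to 733 to 897 and 266 to 314 over 4 genes, a gap carried by Itgax, the 1 of the 4 with the groups apart. T-cell markers overlapped, at 77.0 to 941 and 40.1 to 79.8 over 6 genes. Markers of eosinophils, mast cells and basophils summed to 117 to 150 and 12.4 to 51.4 over 5 genes. Siglecf and Mcpt8 carried most of that gap and were the 2 with the groups apart, while Prg2, Cpa3 and Epx overlapped. Endothelial markers overlapped at 97.6 to 146 and 105 to 130. No marker in these lists was at the floor on all arrays of a group. In tumoricidal replicate 3, the array with the highest Inhba, the natural killer, T-cell and eosinophil, mast cell and basophil sums were the lowest of the tumoricidal group, the dendritic cell, macrophage, fibroblast, plasma cell and platelet sums were the highest, and the neutrophil and endothelial sums lay between. The part of these cells in the Inhba result was not tested.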

How the data were processed

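CD11b+ cells were profiled on 5 Affymetrix mouse arrays (3 tumoricidal, 2 control) from 6 µg of total RNA each, per the labels' protocols. The authors deposited linear signal intensities per probe set; which software and scaling were used is not given in the sources used here. In the deposited values the 2% trimmed mean of every array is 100.0, while array medians ranged from 15.4 to 22.6.

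Each array was scaled to the median of the array medians, 64 control probe sets were removed, values were floored at the pooled 25th percentile (4.79), the values were put on the log2 scale, and 3984 probe sets that never exceeded the floor were dropped. The 41053 left were compared with limma 3.58.1 in R 4.3.3 (lmFit, eBayes without trend, two-sided, Benjamini-Hochberg, threshold 0.05), tested on simulated data; figures used Python 3.11.15 and matplotlib 3.10.9. Gene names came from GEO's platform annotation. Levels of different probe sets were not tested against each other. Words such as brighter, faint or high, and the marker sums, describe array signal only. Arrays give no depth; their number limits the precision.

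The members, lists and tests were chosen with earlier results of these data known. Named were all members, the other pathway genes past the threshold in each role or else the 2 with the smallest p and a group mean above the median signal, and the 5 genes with the profile closest to Inhba; other names, such as Inha, Inhbb, Inhbc, Inhbe, Acvr1b, Acvr2a, Acvr2b, Smad3 and single markers, were chosen after their values were seen.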

Additional observations from a re-analysis of the deposited data

How the results depend on the processing

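Alternatives changed the scaling, the floor, the filter, the variance model, a block or the arrays used; where 1 control array was left out, the lone one was assumed to vary like the tumoricidal arrays. Among 324 values of the 21 tested member probe sets under the alternatives, 1 passed limma's adjusted threshold, that of Tgfb3 with only probe sets above the median, and 10 probe sets, among them Inhba, Tgfb3 and both of Fst, did not change sign in any fit, though Tgfb2 1450922_a_at went from -0.73 to 0 without control replicate 1. The count of members past the threshold was 0 in the reported fit and 1 with that filter. Inhba moved to 4.13 within batch B. Over all probe sets the count of 21 became 60 with the floor at the 50th percentile, 258 above the median, 62 with no filter and 65 with an intensity trend, and 0 with the floor at the 10th percentile, with the replicate block, with the batch block and with any 1 array left out (0 to 0), where 2036 to 5565 had an unadjusted p under 0.05. No other pathway gene passed in any fit. The cause of these moves was not tested. The median difference of all probe sets moved from 0.09 to -0.11 with the deposited scaling.

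Values that changed sign in a fit were as follows. With the deposited scaling Tgfb1 1420653_at had -0.12, Tgfbr1 1420894_at -0.056, Tgfbr1 1420893_a_at -0.062, Tgfbr2 1425444_a_at -0.20 and Smad7 1443771_x_at -0.14. With quantile normalization Tgfb1 1420653_at had -0.14 and Tgfbr2 1425444_a_at -0.10. Tgfbr1 1420894_at had -0.24 with the floor at the 50th percentile, Tgfbr2 1422019_at 0.078 with the floor at the 10th percentile, and Tgfbr2 1426397_at 0.031 with the batch block. With arrays left out the ranges were -0.18 to 0.41 for Tgfb1 1420653_at, -0.45 to 0.0079 for Tgfb2 1450923_at, -0.49 to 0.11 for Tgfbr1 1420895_at, -0.52 to 0.87 for Tgfbr1 1420894_at, -0.22 to 0.56 for Tgfbr1 1420893_a_at, -0.53 to 0.33 for Tgfbr2 1426397_at, -0.69 to 0.76 for Tgfbr2 1425444_a_at, -0.52 to 0.24 for Tgfbr2 1422019_at, -0.33 to 0.083 for Tgfbi 1448123_s_at, -0.76 to 0.0031 for Tgfbi 1437463_x_at and -0.35 to 0.42 for Smad7 1443771_x_at. Single-batch differences with the sign turned were 0.09 for Tgfbr2 1426397_at, 0.06 for Tgfb2 1450923_at and -0.60 for Smad7 1443771_x_at in batch A, and -0.038 for Tgfb1 1420653_at, -0.16 for Tgfbr2 1425444_a_at, -0.56 for Tgfbr1 1420894_at and -0.39 for Tgfbr1 1420893_a_at in batch B.

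Replicates 1 and 2 of the groups share a number and nothing in the labels pairs them; deviations of same-numbered arrays correlated at 0.02 for number 1 and -0.24 for number 2 across probe sets. With the replicate block Inhba had 2.02 (limma adjusted p = 0.908), the same value as without tumoricidal replicate 3, which has no partner. The block also gave 0.0079 for Tgfb2 1450923_at, -0.23 for Tgfbr2 1425444_a_at, 0.046 for Tgfbi 1448123_s_at and -0.35 for Smad7 1443771_x_at, and called no probe set.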
